A study of Homo sapiens with 12 samples.

Results

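The 10 genes described here encode enzymes that make asparagine and serine, enzymes that use serine as a source of one-carbon units in mitochondria, and transporters that bring amino acids into the cell. They were taken by name (ASNS, PHGDH, PSAT1, PSPH, SHMT2, MTHFD2, SLC7A5, SLC3A2, SLC1A5 and SLC7A1), and all 10 were found among the 21462 genes of the files. RNA of LN229, an established human glioblastoma line labelled IDH wildtype, was sequenced in 12 libraries, of which 6 came from control cultures and 6 from cultures given 100 mM metformin, a biguanide used against type 2 diabetes. The time of 5 h is given for the treatment in the study's description of the experiment, which calls the controls vehicle where the labels call them untreated. All cultures grew in DMEM with serum and antibiotics. They represent 1 cell line, and the 12 are described as independent experiments.

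Asparagine synthetase (ASNS) makes asparagine from aspartate with glutamine as nitrogen donor. Serine is made from a glycolytic intermediate in consecutive steps by phosphoglycerate dehydrogenase (PHGDH), phosphoserine aminotransferase (PSAT1) and phosphoserine phosphatase (PSPH). In mitochondria, SHMT2 turns serine into glycine and a one-carbon unit on folate, and MTHFD2 oxidises that unit. SLC7A5 (LAT1) carries large neutral amino acids and needs SLC3A2 (4F2hc), which brings it to the membrane. SLC1A5 (ASCT2) carries glutamine and other small neutral amino acids, and SLC7A1 (CAT1) carries arginine and lysine. Many of these genes are known targets of ATF4, a transcription factor made when cells lack amino acids or when mitochondria or protein folding are disturbed. ATF4 with a C/EBP partner binds a composite element in such genes, and MYC is known to bind E-boxes.

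Promoter windows of RefSeq (GRCh38.p14, 250 bases before to 50 bases after a start site) were matched by symbol for 8 of the 10 genes, in 13 windows. PSPH and SHMT2 were not matched. The letters TGATGNAA, the core of the C/EBP-ATF composite element, were searched on both strands, as were CACGTG, the E-box, and TGACGTCA, the cAMP response element. The motifs did not overlap where they were found. TGATGNAA stood in windows of 4 of the 8 genes and in 3.62% of all 35116 windows, CACGTG in windows of 2 of the 8 genes and in 7.26% of all windows, and TGACGTCA in none of the 8 genes and in 1.85% of all windows. The counts are of genes, which had 1 to 3 windows each, and the percentages are of single windows. They therefore cannot be compared directly, and no enrichment was tested. The sites are shown because ATF4 and MYC, whose families bind such letters, are among the genes compared here. They are read 5′ to 3′ on the strand of the gene, with the matched letters in capitals, and a match is a description of the letters only.
ASNS, chr7:97872458-97872487, minus strand: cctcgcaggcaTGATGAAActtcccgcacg
SLC7A1, chr13:29595663-29595692, minus strand: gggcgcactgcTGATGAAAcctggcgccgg
SLC3A2, chr11:62881725-62881748, plus strand: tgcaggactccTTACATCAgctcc
SLC1A5, chr19:46784893-46784922, minus strand: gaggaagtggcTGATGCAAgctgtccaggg
SLC7A5, chr16:87869620-87869649, minus strand: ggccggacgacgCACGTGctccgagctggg
SLC1A5, chr19:46787326-46787355, minus strand: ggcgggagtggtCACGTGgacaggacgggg
The ASNS match began 68 bases before the start site, and the SLC7A1 match began 7 bases after it. The SLC3A2 match is on the opposite strand, 37 bases after a start site that lies inside the gene. Both SLC1A5 matches also belong to start sites inside the gene, and the window of its outermost start held none of the motifs. The SLC7A5 E-box began 130 bases before the start site.

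The depth was 19583535 to 21836186 exon reads in the control libraries and 14331617 to 19516144 in the metformin libraries. Metformin replicate 1 stood apart from the other 11 libraries before any gene was compared. It had the fewest exon reads, and 38.1% of them crossed an exon junction, against 44.7% to 46.7% in control libraries and 45.7% to 48.1% in the other metformin libraries. Results that rest on it are therefore given with and without it. Of 10 markers of glial cells and glioblastoma lines, VIM, NES, CD44, OLIG2 and EGFR reached a TPM of 1 in control libraries (a sum over the list of 1225 to 1319 in control and 570 to 1461 in metformin libraries), while SOX2, GFAP, S100B, FABP7 and CHI3L1 were at or near 0. The 6 microglia and leukocyte markers summed to 21.7 to 23.7 in control and 20.2 to 43.3 in metformin libraries, with PTPRC, AIF1 and CSF1R at or near 0 in both. CD14 was at 9.21 to 11.6 TPM in metformin against 0.174 to 0.797 in control libraries, and ITGAM was at 1.12 to 5.19 against 0 to 0.144. The 6 neuron markers summed to 113 to 122 in control and 135 to 167 in metformin libraries, most of it from TUBB3 (102 to 114 and 131 to 160). RBFOX3 was lower, at 2.51 to 5.54 TPM in metformin against 5.57 to 7.35 in control libraries. GAD1 was lower as well, at 1.063 to 1.601 against 2.215 to 3.268. SYT1 and SNAP25 stayed below a TPM of 1, and STMN2 was at 0 in every library. The part of such cells or transcripts in the results was not tested.

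The genes were well expressed in control cultures. TPM (read counts per exon length, scaled to a fixed total) allows levels of different genes to be compared. SLC7A5 was the highest at 467 ± 38.9 TPM (SD, n = 6), followed by PSAT1 at 283 ± 23.4, SLC3A2 at 266 ± 8.20 and SLC1A5 at 253 ± 6.04. SHMT2 at 218 ± 4.44, MTHFD2 at 191 ± 17.6, SLC7A1 at 104 ± 23.1 and PHGDH at 89.6 ± 2.06 came next, and ASNS at 72.6 ± 2.18 and PSPH at 26.2 ± 1.61 were the lowest. In this order the control ranges of PSAT1 and SLC3A2, of SLC3A2 and SLC1A5, of SHMT2 and MTHFD2, and of SLC7A1 and PHGDH overlapped. SHMT2 was still above MTHFD2 in each of the 6 control libraries, while the order within the other overlapping pairs turned between libraries, so that those neighbours did not differ beyond their spread. Within the serine pathway, the transcript of the middle enzyme PSAT1 was thus above that of the first enzyme PHGDH, and that of the last enzyme PSPH was below it.

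**Figure D1:**
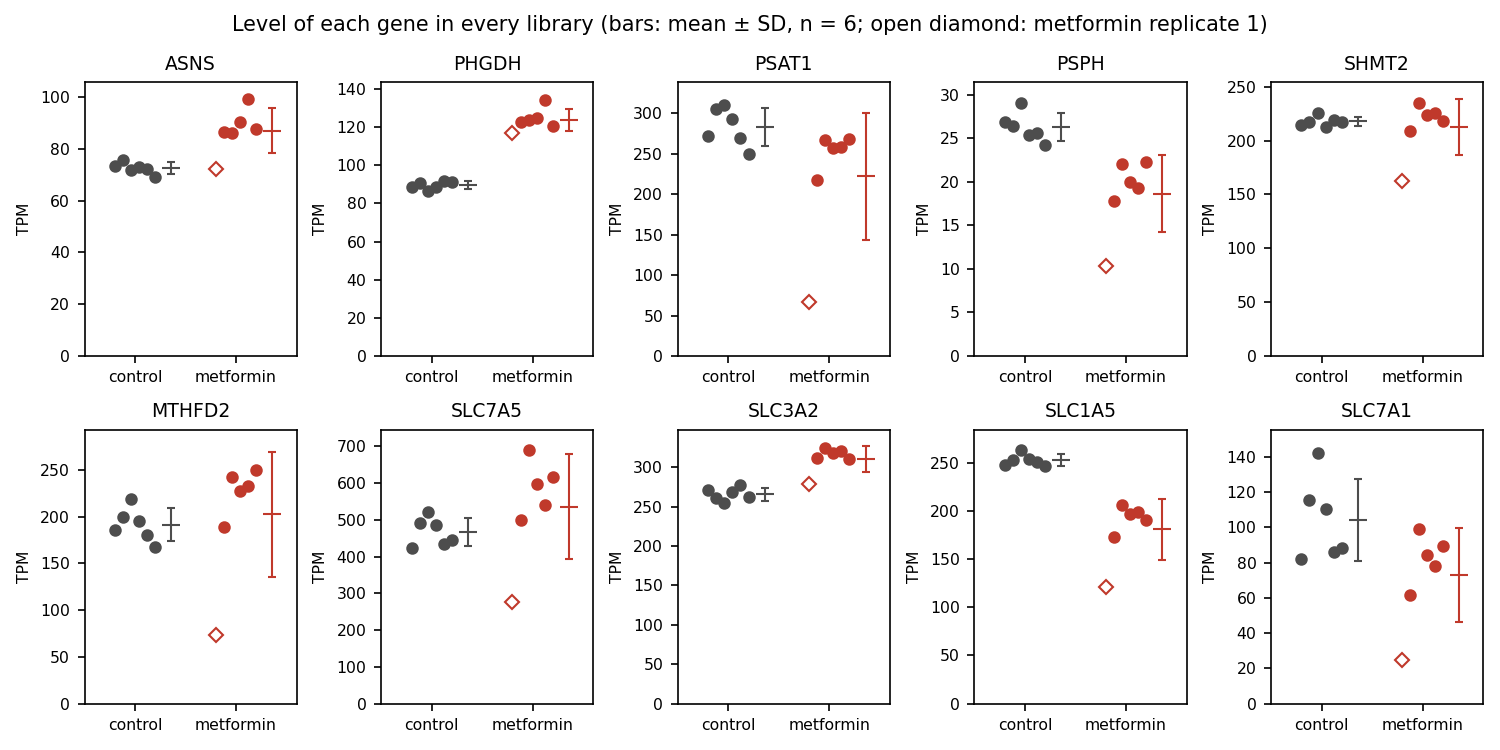
TPM of the 10 genes in each library, with a separate axis for each gene starting at 0. Filled circles are libraries, the open diamond is metformin replicate 1, and bars are mean ± SD of 6 libraries. The groups are apart for PHGDH, PSPH, SLC3A2 and SLC1A5, and the diamond lies below the other metformin libraries for each of the 10 genes.

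After metformin the 10 genes did not move together. ASNS, PHGDH and SLC3A2 rose and PSPH and SLC1A5 fell in TPM, which makes 3 higher and 2 lower of 10 called by limma at an adjusted p under 0.05. Among all 11313 genes tested, 8.00% were called higher and 41.8% lower. TPM is a share of a fixed total, and the median change of all genes was -0.36 on the log2(TPM + 1) scale, so a gene near that value kept its place among the genes. After median-ratio scaling, in which a library is divided by the median of its ratios to the geometric mean over libraries, that median was 0.010, and 6 genes were called higher (SHMT2, MTHFD2 and SLC7A5 besides the 3 above) and none lower, against 22.7% and 25.9% of all genes. The median change of the 10 genes was -0.032 before and 0.39 after that scaling. PSPH and SLC1A5 did not pass the test after scaling (adjusted p = 0.135 and 0.431 by limma). Without metformin replicate 1, the deposited TPM gave 5 higher, with MTHFD2 and SLC7A5 added, and 2 lower, against 17.1% and 49.3% of all genes. In bulk RNA of this kind, fewer cells of a type and less RNA per cell cannot be told apart.

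**Figure D2:**
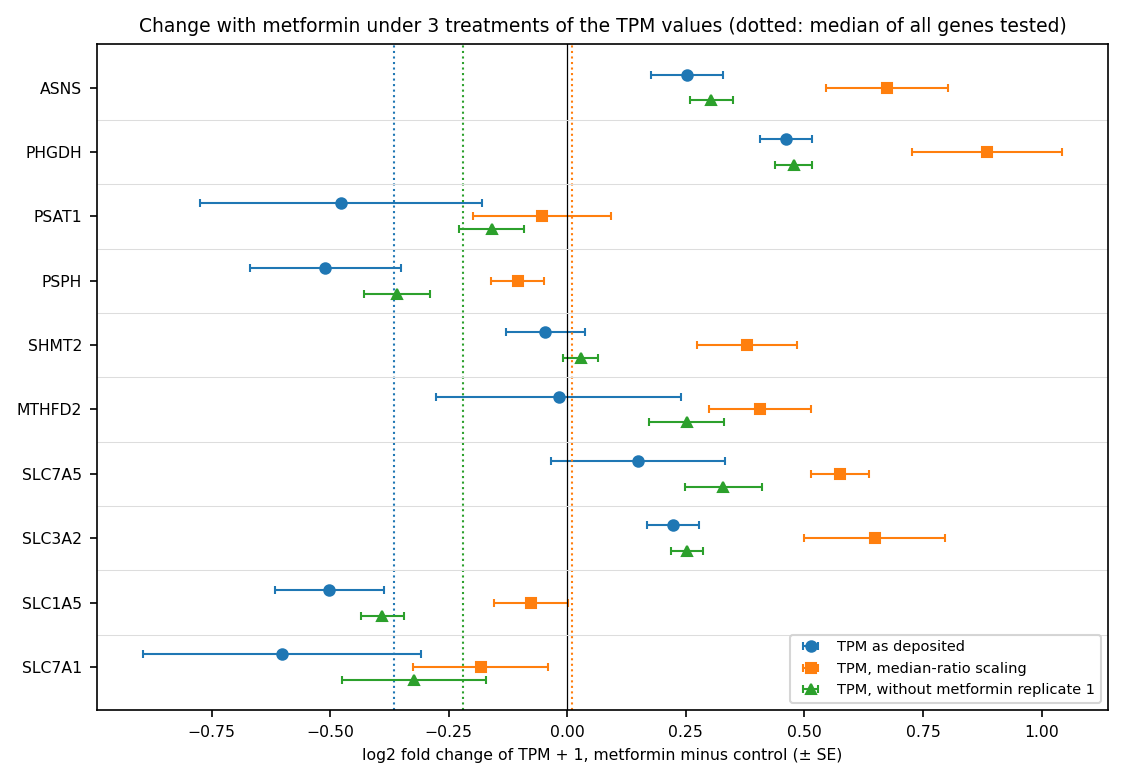
Change of each gene with metformin (log2 fold change of TPM + 1, metformin minus control, ± SE) for the deposited TPM, for TPM after median-ratio scaling and for the deposited TPM without metformin replicate 1. Dotted lines mark the median of the 11313 genes tested in the same 3 fits. ASNS, PHGDH, SHMT2, MTHFD2, SLC7A5 and SLC3A2 lie to the right of the median in each fit, and PSPH, SLC1A5 and SLC7A1 lie to the left of it.

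Counts of exon reads were compared with edgeR and its TMM scaling, which is not tied to the TPM total. It called the same 6 genes higher and none lower as the scaled TPM, against 24.5% of all genes higher and 25.9% lower. The TMM factor of metformin replicate 1 was 0.657, against 0.891 to 0.969 in the other metformin libraries and 1.12 to 1.15 in control libraries. Without it the 6 genes were still called higher, and PSPH and SLC1A5 were called lower (log2 fold change -0.13 and -0.15, adjusted p = 0.0419 and 0.00967), with 32.4% and 34.3% of all genes called. When edgeR used library totals alone, 3 genes were higher and 2 lower, as with the deposited TPM.

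ASNS, at chr7:97851677-97872542 on the minus strand, rose. Its TPM was 69.2 to 75.9 (median 72.8) in control and 72.4 to 99.3 (median 87.2) in metformin libraries. The 5 metformin libraries other than replicate 1 lay at 86.0 or above, over every control library, and replicate 1 lay among the controls. Means were 72.6 ± 2.18 and 87.1 ± 8.70 (SD, n = 6), a log2 fold change of 0.25 (SE 0.075, adjusted p = 0.0143 by limma). Exon reads gave 0.69 (SE 0.13, adjusted p = 0.000612 by edgeR), and the gene stood at percentile 87.3 of the TPM changes and 85.0 of the exon read changes. Its rise was therefore within the upper part of all genes and not at the extreme.

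PHGDH, the first enzyme of serine synthesis, at chr1:119648411-119744226 on the plus strand, had the largest rise of the 10 genes in TPM and in exon reads. Its TPM was 86.4 to 92.0 (median 89.8) in control and 117 to 134 (median 123) in metformin libraries. All 6 metformin libraries, replicate 1 included, lay above all controls, as in 4.68% of all genes tested. This was a log2 fold change of 0.46 (SE 0.055, adjusted p = 2.05e-05 by limma) and 0.92 in exon reads (SE 0.16, adjusted p = 0.000399 by edgeR), at percentiles 92.1 and 90.2 of all genes.

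The later enzymes of the pathway did not follow. PSAT1, at chr9:78297125-78330093 on the plus strand, was at 250 to 310 TPM (median 283) in control and 66.6 to 268 (median 258) in metformin libraries. Replicate 1 was at 66.6 and the other 5 at 218 to 268, within or below the control range. Its log2 fold change of -0.48 (SE 0.30) did not pass the test (adjusted p = 0.198 by limma), and without replicate 1 it was -0.16 (adjusted p = 0.0564). Exon reads gave -0.04 with that library and 0.08 without it, neither past the threshold (adjusted p = 0.850 and 0.0703 by edgeR).

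PSPH, at chr7:56011051-56051604 on the minus strand, was at 24.3 to 29 TPM (median 26.0) in control and 10.3 to 22.3 (median 19.6) in metformin libraries. The groups did not overlap, with 37.3% of all genes apart in that direction. Its log2 fold change was -0.51 (SE 0.16, adjusted p = 0.0180 by limma), at percentile 38.7. Exon reads gave -0.13 (SE 0.058, adjusted p = 0.0783 by edgeR). PSPH was thus lower as a share of transcripts and close to the median of all genes once libraries were scaled.

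SHMT2 and MTHFD2, the mitochondrial enzymes, were level in TPM and higher in scaled reads. SHMT2, at chr12:57229573-57234935 on the plus strand, was at 213 to 226 TPM (median 217) in control and 162 to 235 (median 221) in metformin libraries. The lowest value belonged to replicate 1 and the groups overlapped. Between the group means it changed by -0.05 in TPM on the log2 scale (SE 0.084, adjusted p = 0.665 by limma) and 0.37 in exon reads (SE 0.10, adjusted p = 0.00760 by edgeR). The sign in TPM turned to 0.03 without replicate 1, which did not pass the test (adjusted p = 0.513). SHMT2 overlaps NDUFA4L2 on the opposite strand, which had 16.5 exon reads on average in control libraries and 18.8 in metformin libraries. The use of strand in counting is not stated in any source used here, and reads of overlapping genes cannot be told apart.

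MTHFD2, at chr2:74198610-74217565 on the plus strand, was at 168 to 219 TPM (median 190) in control and 73.0 to 249 (median 230) in metformin libraries. Replicate 1 at 73.0 was far below the other 5, of which 4 lay above every control library. The log2 fold change was -0.02 (SE 0.26, adjusted p = 0.959 by limma) with all libraries and 0.25 (SE 0.079, adjusted p = 0.0133) without replicate 1. Without control replicate 3 it was 0.021 (adjusted p = 0.957), so that the sign in TPM turned with 1 library of either group and the call with metformin replicate 1. Exon reads gave 0.41 (SE 0.11, adjusted p = 0.00798 by edgeR) and 0.50 without it. Of its exon reads 94.2% were placed uniquely, against 100% for the other 9 genes.

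The subunits of the large neutral amino acid transporter both rose in scaled reads. SLC3A2, at chr11:62856102-62888875 on the plus strand, was at 254 to 278 TPM (median 265) in control and 278 to 325 (median 315) in metformin libraries. The groups did not overlap, with 4.68% of all genes apart in that direction, although replicate 1 at 278.2 lay just above the highest control at 277.8. The log2 fold change was 0.22 (SE 0.055, adjusted p = 0.00495 by limma) and 0.66 in exon reads (SE 0.15, adjusted p = 0.00213 by edgeR).

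SLC7A5, the transporting subunit, at chr16:87830023-87869507 on the minus strand, was at 422 to 522 TPM (median 465) in control and 276 to 689 (median 568) in metformin libraries. Replicate 1 was the lowest of all 12 libraries, and 4 of the other 5 lay above every control library. In TPM its log2 fold change was 0.15 (SE 0.18, adjusted p = 0.517 by limma) and 0.33 (SE 0.081, adjusted p = 0.00320) without replicate 1. Exon reads gave 0.56 (SE 0.060, adjusted p = 7.12e-06 by edgeR), and 0.57 without that library.

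The other carriers were not called higher in any of these fits. SLC1A5, the glutamine carrier, at chr19:46774883-46788594 on the minus strand, was at 248 to 264 TPM (median 253) in control and 121 to 207 (median 194) in metformin libraries. The groups did not overlap, with 37.3% of all genes apart in that direction. The log2 fold change was -0.50 (SE 0.12, adjusted p = 0.00305 by limma) in TPM and -0.09 (SE 0.070, adjusted p = 0.285 by edgeR) in exon reads.

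SLC7A1, the arginine and lysine carrier, at chr13:29509414-29595688 on the minus strand, was at 82.3 to 142 TPM (median 99.3) in control and 24.8 to 99.1 (median 81.1) in metformin libraries. Its control libraries were unequal, with replicates 2, 3 and 4 at 110 to 142 and replicates 1, 5 and 6 at 82.3 to 88.1. The same libraries were the higher ones for PSAT1 (293 to 310 TPM against 250 to 272), SLC7A5 (485 to 522 against 422 to 444) and MTHFD2 (196 to 219 against 168 to 185). Over all genes, the counts of replicates 1, 5 and 6 differed by a chi-square per degree of freedom of 2.43 to 2.94 among themselves. Those of replicates 2, 3 and 4 differed by 3.46 to 17.4, and libraries of the one set from those of the other by up to 51.1. Replicate 4, however, differed less from each of replicates 1, 5 and 6 than from replicate 3 (17.4), so these values did not separate the sets cleanly. Replicates 2, 3 and 4 also had 6.84 to 7.95 intron reads per 100 exon reads over all genes, against 5.42 to 5.84 in replicates 1, 5 and 6, and the part of this in the levels was not tested. A log2 fold change of -0.60 (SE 0.29) did not pass the test (adjusted p = 0.106 by limma), nor did -0.19 in exon reads (SE 0.15, adjusted p = 0.303 by edgeR).

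Intron reads, which come mostly from RNA that is not yet spliced, rose most strongly for ASNS, PHGDH and SHMT2, and rose for PSAT1 and SLC7A1, which exon reads had not called. With edgeR over 11122 genes, 6 of the 10 were called higher (ASNS, PHGDH, PSAT1, SHMT2, SLC7A5 and SLC7A1) and none lower, against 31.3% and 30.2% of all genes. The median change of the 10 was 1.03 on the log2 scale and that of all genes 0.050. Without metformin replicate 1, MTHFD2 and SLC1A5 were called higher as well and PSPH lower (adjusted p = 0.0210, 4.96e-06 and 0.00608), with 36.5% and 38.0% of all genes called.

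ASNS had 45 to 98 intron reads (median 60.5) in control and 22 to 280 (median 197) in metformin libraries. Its 22 reads in replicate 1 were the fewest of all 12, and the other 5 metformin libraries, at 175 or more, lay above all controls. Its log2 fold change was 1.79 (SE 0.28, adjusted p = 6.07e-05 by edgeR). PHGDH had 173 to 267 (median 200.5) in control and 199 to 665 (median 569) in metformin libraries, a log2 fold change of 1.65 (SE 0.12, adjusted p = 5.82e-08). SHMT2 had 87 to 110 (median 95.5) and 37 to 276 (median 243.5), a log2 fold change of 1.38 (SE 0.23, adjusted p = 0.000110). As with ASNS, replicate 1 alone kept the groups of PHGDH and SHMT2 from being apart in these raw reads. That library had only 620866 intron reads over all genes, against 1139495 to 1556757 in control libraries. Raw reads therefore understate its levels relative to the controls, and the overlap holds for unscaled reads only.

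PSAT1 and SLC7A1 differed from these 3 in that their exon reads had not risen. PSAT1 intron reads were 118 to 292 (median 174) in control and 159 to 351 (median 312) in metformin libraries, a log2 fold change of 0.98 (SE 0.15, adjusted p = 6.75e-05 by edgeR). SLC7A1 intron reads were 151 to 390 (median 214.5) and 178 to 618 (median 409), a log2 fold change of 1.08 (SE 0.21, adjusted p = 0.000381). For both genes the groups overlapped in raw reads. Per 100 exon reads of the same gene, PSAT1 had 2.34 to 6.10 intron reads in control and 5.56 to 14.5 in metformin libraries, and SLC7A1 had 2.80 to 5.29 and 5.07 to 14.0. Replicate 1 set both upper limits, the other 5 metformin libraries reaching 8.47 for PSAT1 and 12.4 for SLC7A1, and the groups overlapped for both genes with and without it.

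SLC7A5 intron reads rose by a log2 fold change of 1.14 (SE 0.16, adjusted p = 2.85e-05 by edgeR). SLC3A2, its partner subunit, had 230 to 287 intron reads (median 252) in control and 129 to 312 (median 245) in metformin libraries. That is a log2 fold change of 0.25 (SE 0.15, adjusted p = 0.146), although its exon reads had risen by 0.66. When introns were scaled by the exon totals and factors, SLC3A2 was called higher, at 0.42 (adjusted p = 0.0130). MTHFD2 was similar, with 0.17 in intron reads (SE 0.24, adjusted p = 0.565) and 0.41 in exon reads. Intron reads of MTHFD2 numbered only 7 to 97 a library, and with uniquely placed reads alone the estimate was -0.24.

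**Figure D3:**
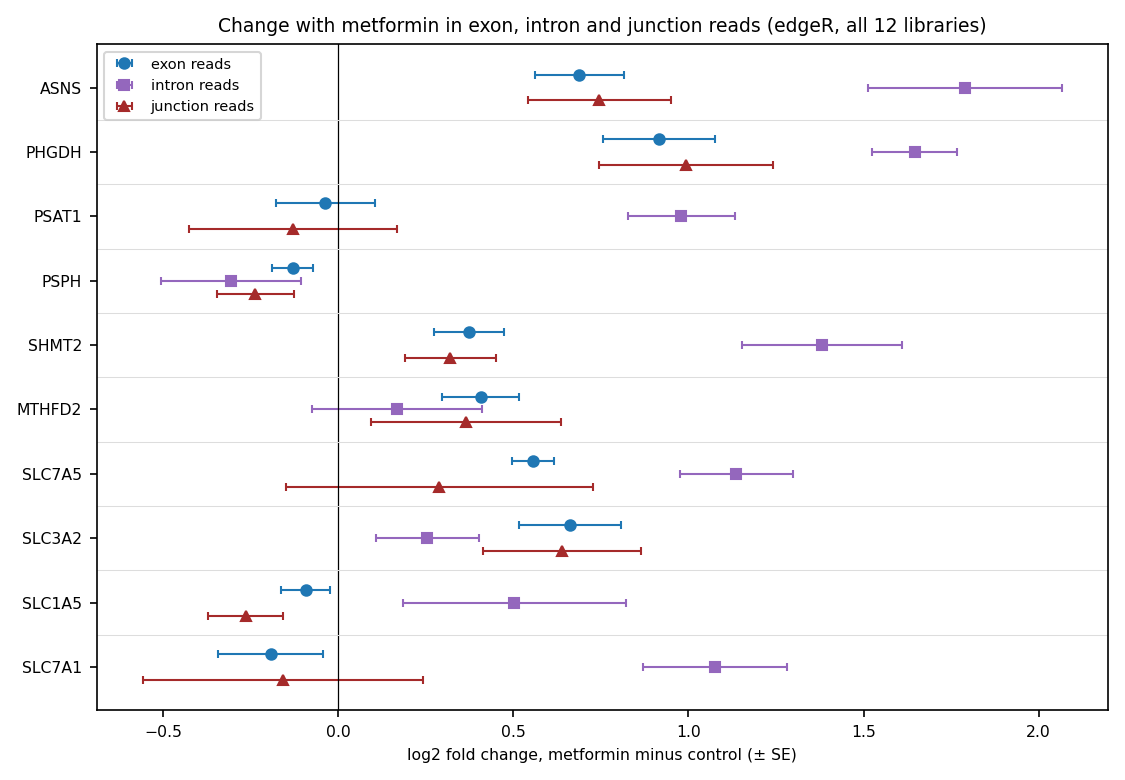
Change of each gene with metformin in exon, intron and junction reads (log2 fold change, metformin minus control, ± SE, edgeR, 12 libraries). Intron reads lie to the right of exon reads for ASNS, PHGDH, PSAT1, SHMT2, SLC7A5, SLC1A5 and SLC7A1, and to the left for PSPH, MTHFD2 and SLC3A2.

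The ratio of exon to intron reads within a library tests whether both changed by the same factor. It fell for PHGDH, PSAT1, SHMT2 and SLC7A1 among 9920 genes tested with limma, which makes 4 of 10 lower and none higher, against 18.4% of all genes lower and 13.6% higher. The median change of all genes was -0.11. SLC7A1 changed by -1.43 (SE 0.26, adjusted p = 0.00120), PSAT1 by -1.23 (SE 0.27, adjusted p = 0.00415), SHMT2 by -1.09 (SE 0.37, adjusted p = 0.0380) and PHGDH by -0.92 (SE 0.29, adjusted p = 0.0258). PSAT1 and SLC7A1 kept their calls when any library was left out. The call of SHMT2 was lost when any 1 of 11 libraries was left out (adjusted p = 0.0561 to 0.0803) and that of PHGDH with any 1 of 7 (adjusted p = 0.0528 to 0.0585). Without metformin replicate 1, 7 of 10 were lower, with ASNS, SLC7A5 and SLC1A5 added, against 34.4% of all genes. A model of both read types in edgeR, added after the data were seen, called ASNS and SLC7A5 lower besides the 4 (adjusted p = 0.0300 and 0.00890). That made 6 of 10 lower and 0 higher, against 1876 lower and 2156 higher of all 9920 genes. For SLC3A2 and MTHFD2 the limma ratio changed by 0.22 and 0.25, neither past the threshold (adjusted p = 0.463 and 0.592).

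Junction reads, which come from spliced RNA, were called higher for ASNS (log2 fold change 0.75, SE 0.20, adjusted p = 0.0152 by edgeR) and PHGDH (0.99, SE 0.25, adjusted p = 0.00949), which makes 2 higher and none lower of 10, against 12.4% and 15.9% of 10430 genes. Without metformin replicate 1, 6 were higher, with SHMT2, MTHFD2, SLC7A5 and SLC3A2 added, and SLC1A5 was lower, against 24.7% and 25.1%. The share of exon reads that crossed a junction differed widely between the genes. In control libraries it was 64.3% to 68.6% for ASNS, 63.8% to 68.9% for PHGDH and 60.0% to 64.4% for SHMT2, but 15.6% to 23.8% for SLC7A5 and 8.82% to 18.1% for SLC7A1. In metformin replicate 1 it was below every other library for each of the 10 genes, at 33.4% for ASNS, 34.7% for PHGDH, 6.20% for PSAT1, 5.75% for MTHFD2, 1.46% for SLC7A1 and 0.601% for SLC7A5.

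**Figure D4:**
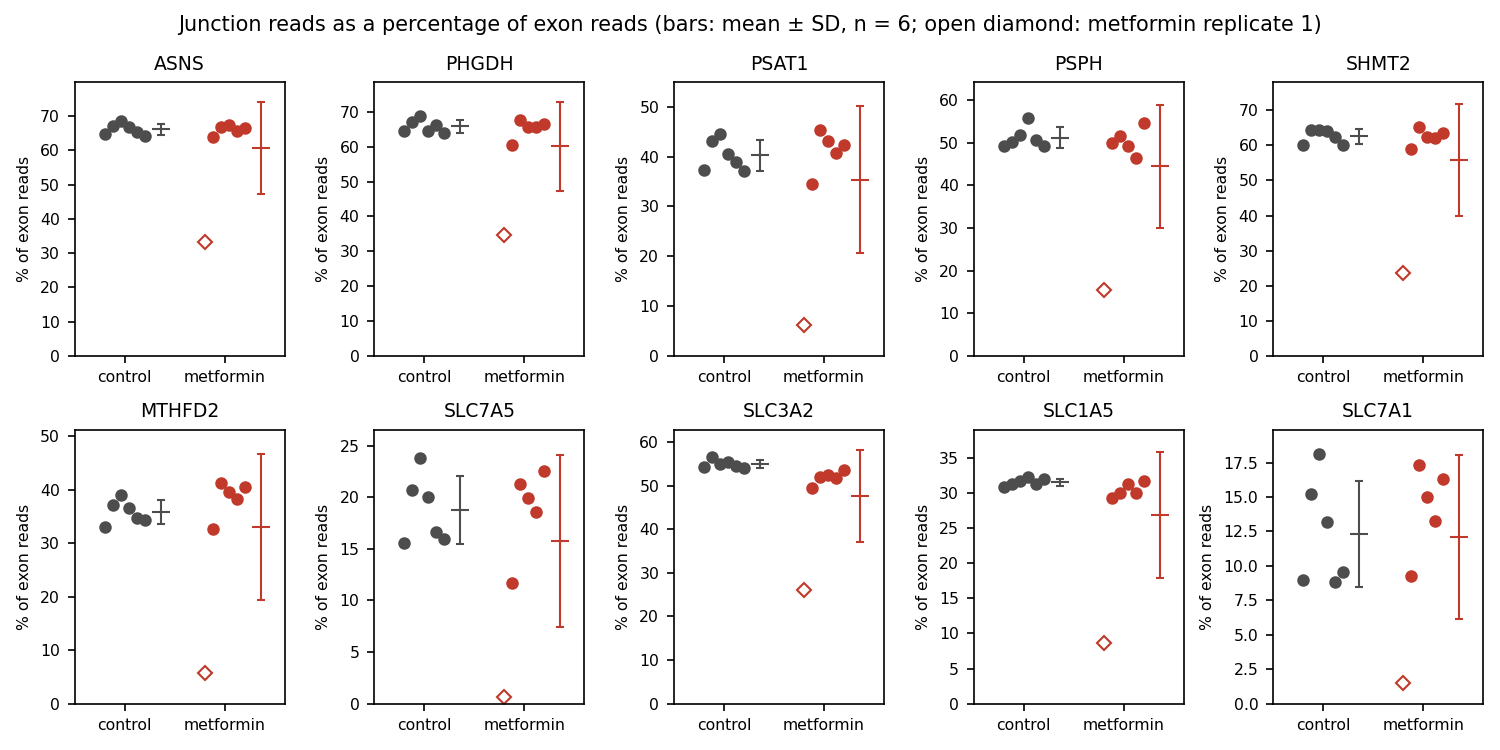
Junction reads as a percentage of the exon reads of the same gene, in each library, with a separate axis for each gene starting at 0. Filled circles are libraries, the open diamond is metformin replicate 1, and bars are mean ± SD of 6 libraries. The diamond is the lowest point of each panel.

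Ratios of TPM within a library do not change when a library is scaled by 1 factor, and 8 were computed (exact permutation test over 924 splits, two-sided, smallest possible p = 0.00216, adjusted over the 8). The subunit ratio SLC7A5/SLC3A2 was 1.56 to 2.05 (median 1.75) in control and 0.991 to 2.12 (median 1.78) in metformin libraries, a log2 difference of -0.07 (exact p = 0.781). The groups overlapped, and without replicate 1 the difference was 0.075 (exact permutation test, adjusted p = 0.455). PSAT1/PHGDH was 2.74 to 3.59 (median 3.19) in control and 0.570 to 2.22 (median 1.99) in metformin libraries, and its log2 difference was -0.95. PSPH/PHGDH had a median of 0.288 in control and 0.152 in metformin libraries, a difference of -1.003. Both were lower in 6 of 6 metformin libraries than in any control (exact p = 0.00216, adjusted 0.00289), so the later enzymes of the pathway fell relative to the first one.

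The mitochondrial enzymes were set against their cytosolic counterparts. SHMT2/SHMT1 was at most 4.92 in control and 5.53 to 8.01 in metformin libraries, a log2 difference of 0.40. MTHFD2/MTHFD1 was at most 1.95 in control and 2.13 to 2.64 in metformin libraries, a difference of 0.40. Both were higher in 6 of 6 metformin libraries than in any control (exact p = 0.00216, adjusted 0.00289), replicate 1 included. SHMT1 itself was at 46.7 ± 1.45 TPM in control and 35.3 ± 7.74 in metformin libraries, and MTHFD1 at 104 ± 11.4 and 84.3 ± 29.8 (SD, n = 6).

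ASNS and GLUL, which makes glutamine, both rose, and ASNS/GLUL fell from a median of 1.81 to 0.727, a log2 difference of -1.22. SLC1A5/SLC38A2, a pair of carriers of small neutral amino acids, fell from a median of 3.81 to 0.348, a difference of -3.22. Neither ratio overlapped between the groups (exact p = 0.00216, adjusted 0.00289). SLC7A11/SLC7A5, with the cystine carrier xCT as numerator, was 0.0135 and 0.0119 at the median, and the groups overlapped (exact p = 0.0801, adjusted 0.0915). Without metformin replicate 5 it passed the threshold (log2 difference -0.29, exact permutation test, adjusted p = 0.0445).

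**Figure D5:**
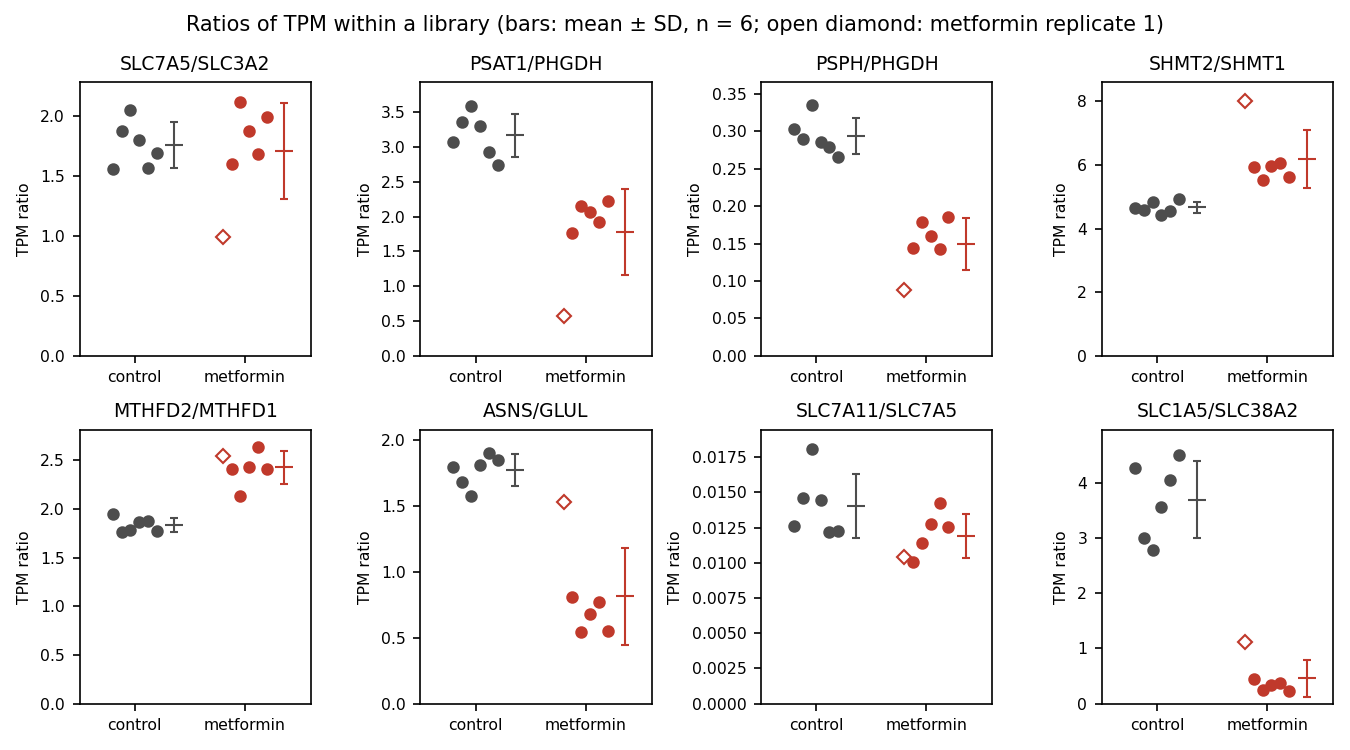
Ratios of TPM of 8 gene pairs within each library, with a separate axis for each pair starting at 0. Filled circles are libraries, the open diamond is metformin replicate 1, and bars are mean ± SD of 6 libraries. The groups are apart in 6 of the 8 panels, the exceptions being SLC7A5/SLC3A2 and SLC7A11/SLC7A5.

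Other genes of the same pathways were counted from 4 lists. Of 36 genes of serine, glycine and one-carbon metabolism, 32 were tested in TPM, of which 1 was higher and 16 lower (median -0.41, all genes -0.36), and in exon reads 5 were higher and 8 lower. Of all genes, 8.00% were higher and 41.8% lower in TPM, and 24.5% and 25.9% in exon reads. The decreases that the naming rule picked were MTFMT, which formylates the mitochondrial initiator tRNA (17.2 ± 1.08 TPM in control and 6.70 ± 1.28 in metformin libraries, log2 fold change -1.25, adjusted p = 2.48e-06 by limma), and SLC19A1, the reduced folate carrier (31.0 ± 1.07 and 12.5 ± 1.04, log2 fold change -1.24, adjusted p = 6.54e-08). Both were also lower after median-ratio scaling, by -0.87 and -0.84.

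Of 26 enzymes of asparagine, aspartate, glutamine and proline metabolism and related steps, 23 were tested in TPM, of which 2 were higher and 7 lower (median -0.19), and in exon reads 10 were higher and 4 lower, against the same shares of all genes (8.00% and 41.8%, 24.5% and 25.9%). The higher ones in TPM were GLUL (41.2 ± 3.48 to 122 ± 41.8 TPM, log2 fold change 1.45, adjusted p = 0.000381 by limma) and ARG2, mitochondrial arginase (20.9 ± 1.24 to 44.7 ± 10.6, log2 fold change 1.02, adjusted p = 0.000303). PYCR3, an enzyme of proline synthesis (log2 fold change -1.15), and CAD, which starts pyrimidine synthesis (-0.97), were lower, and were also lower after median-ratio scaling at -0.74 and -0.55.

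Of 34 other amino acid transporters, most of them of the plasma membrane, 17 were tested, of which 5 were higher and 6 lower in TPM (median -0.28), against 8.00% and 41.8% of all genes. In exon reads 7 were higher and 3 lower, against 24.5% and 25.9%. SLC38A2 (SNAT2), a carrier of small neutral amino acids, was at 55.0 to 95.2 TPM (median 66.8) in control and 108 to 823 (median 570) in metformin libraries. Its lowest metformin value, in replicate 1, still exceeded every control. The log2 fold change was 2.70 (SE 0.42, adjusted p = 0.000180 by limma), and 3.12 without replicate 1. SLC6A6, a taurine carrier (28.2 ± 6.61 to 132 ± 68.5 TPM, log2 fold change 1.91, adjusted p = 0.00541), and SLC1A3, a glutamate carrier (7.03 ± 1.23 to 26.1 ± 9.77, 1.64, adjusted p = 0.000572), also rose. Their values in replicate 1 overlapped the control range, so the naming rule passed them over, and both were named after their values were seen. SLC6A9, a glycine carrier that the rule named, rose from 1.41 ± 0.16 to 2.36 ± 0.30 TPM (log2 fold change 0.48, adjusted p = 0.000321 by limma). The added 1 understates that change at so low a level. Its intron reads were 10 to 19 in control and 91 to 144 in metformin libraries. Its junction reads overlapped, at 16 to 25 in control and 4 to 32 in metformin libraries (17 to 32 without replicate 1). Reads of spliced RNA thus did not set the groups apart. SLC38A7 and SLC38A9, both known as lysosomal amino acid transporters, were lower by -1.23 and -1.18, and by -0.86 each after median-ratio scaling.

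Of 13 genes of stress pathways linked to such genes, some acting before ATF4 and some after it, 12 were tested. In TPM 3 were higher and 3 lower (median -0.17), against 8.00% and 41.8% of all genes. In exon reads 6 were higher and 2 lower, against 24.5% and 25.9%. ATF4 was at 343 to 364 TPM (median 358) in control and 745 to 1009 (median 984) in metformin libraries. Its groups did not overlap, with 4.68% of all genes apart in that direction, and its log2 fold change was 1.39 (SE 0.075, adjusted p = 2.37e-08 by limma). PPP1R15A (GADD34), which directs dephosphorylation of the initiation factor eIF2, rose from 72.4 ± 1.10 to 350 ± 106 TPM (log2 fold change 2.19, adjusted p = 1.67e-06). MYC was at 210 to 230 TPM (median 220) in control and 26.8 to 95.5 (median 92.2) in metformin libraries, a log2 fold change of -1.55 (SE 0.27, adjusted p = 0.000394). EIF2AK2 (PKR), a kinase of eIF2, was lower by -0.88 (adjusted p = 0.0180 by limma), and by -0.49 after median-ratio scaling. The eIF2 kinases did not move together. EIF2AK1, EIF2AK3 and EIF2AK4 were not called in TPM. In exon reads EIF2AK3 (1.16, adjusted p = 0.00475 by edgeR) and EIF2AK1 (0.21, adjusted p = 0.0206) were higher. EIF2AK2 was lower there (-0.52, adjusted p = 0.0127), and EIF2AK4 was not called (-0.44, adjusted p = 0.0881). The other gene called higher was CEBPB (22.4 ± 3.30 to 55.0 ± 10.5 TPM, log2 fold change 1.25, adjusted p = 8.57e-06 by limma). The other called lower was DDIT3 (14.3 ± 2.24 to 9.99 ± 1.64 TPM, -0.48, adjusted p = 0.00767 by limma), at -0.03 in exon reads (adjusted p = 0.936 by edgeR). CEBPB, DDIT3 and the eIF2 kinases other than EIF2AK2 were named after their values were seen. ATF5 and CEBPG were not called in TPM, and TRIB3 was too low to be tested. In exon reads ATF5 was called higher (log2 fold change 0.28, adjusted p = 0.0253 by edgeR) and CEBPG was not called (0.20, adjusted p = 0.0874). The TPM changes of the 10 genes lay between -0.60 and 0.46.

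The genes whose profile over the 12 libraries was most like each of the 10 were found by the root mean square difference of log2(TPM + 1) after subtracting the control mean, among the genes tested. The nearest to ASNS was SARS1, cytosolic seryl-tRNA synthetase, with a difference of 0.043, followed by GRPEL1 (0.059) and PCMT1 (0.060), and SLC3A2 ranked 14th with 0.071. The nearest to PHGDH were KRT8 (0.042), PRCC (0.044) and VPS37B (0.054), with ASNS at rank 105. PSPH and SLC1A5 lay close to each other at 0.094, SLC1A5 being at rank 105 among the neighbours of PSPH and PSPH at rank 140 among those of SLC1A5. The nearest to SLC7A5 was CNOT3 (0.054) and to MTHFD2 CCDC50 (0.051), with SLC7A5 and MTHFD2 at 0.20 from each other. PSAT1 and SLC7A1 were 0.19 apart, with ACTL6A (0.048) and DPP8 (0.048) as their respective nearest genes. PHGDH and PSAT1, consecutive enzymes, were 0.83 apart, and PSAT1 ranked 7175th among the neighbours of PHGDH.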

How the data were processed

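Gene expression was measured by RNA-seq of mRNA libraries of LN229 cells, 6 control and 6 metformin, grouped by the sample labels. The authors deposited 1 table per library. TPM and RPKM were computed by the authors, and TPM has a fixed sum. Exon, intron and junction read counts per gene were deposited as whole numbers without normalization. Aligner and counter: not given in the sources used here. Mouse builds (GRCm38, mm10) stand in the submitters' processing notes, yet 21377 of the 21462 identifiers belong to human GENCODE release 29 (GRCh38), where 12025 genes keep both ends. Coordinates of genes are those of the files. Pseudogenes of the 10 genes were not analysed here.

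The study names limma on TPM with an adjusted p threshold of 0.05. Here limma 3.58.1 (under R 4.3.3) was used with that threshold, and the log2(TPM + 1) scale, the trended prior, the filter on a mean TPM of 1 and Benjamini-Hochberg adjustment over all genes tested were chosen for this work. Fold changes on that scale understate the change of low genes. Counts were tested with edgeR 4.0.16 (quasi-likelihood, TMM): exon reads for the same genes, intron and junction reads for genes with a mean of at least 10. Exon to intron ratios (0.5 added to both) were tested with limma. Other steps used Python 3.11.15 with scipy 1.17.1, pandas 2.3.3 and, for figures, matplotlib 3.10.9.

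On simulated data, of 100 genes changed by 0.5 and 100 changed by 1 on the log2 scale, limma on TPM recovered 80 and 98 and edgeR on exon reads 79 and 98 among 11313 genes (8 false calls each). On intron reads edgeR recovered 54 and 100 among 11122 genes, and on junction reads 43 and 95 among 10430. The exon to intron ratio recovered 0 and 24 among 9920 genes with limma, and 25 and 96 with the edgeR model added later. The simulated libraries took gene levels and spread from the control libraries only, without the wider spread of the metformin libraries or an outlying library. These rates therefore do not describe the comparison of the real libraries.

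The members and lists were chosen with earlier results of these data known. Named besides the 10 genes were, per list, the 2 genes called higher and the 2 called lower with the largest change in TPM whose libraries do not overlap, genes of the ratios, and the 3 nearest profiles of each member, of which not all are printed. Alternatives covered the pseudocount, filters, RPKM, scaling, DESeq2 1.42.0, array weights, a replicate block and leaving out each library. Uniquely placed exon and intron reads and the edgeR model of both read types were added after the data were seen. No pair of replicates agreed within sampling noise (lowest chi-square per degree of freedom 2.43 over 30 pairs). The study describes the libraries as independent experiments, which the labels do not state, and p-values measure the spread between these samples. Precision depends on the number of reads of a gene.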

Additional observations from a re-analysis of the deposited data

Results flagged for a closer look

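In 110 sets of 6 values (TPM, intron reads, junction shares and ratios of the 10 genes and of the genes named beside them, each in 1 group), the highest or lowest library was compared with its nearest neighbour by Dixon's criterion at the 95% level. Metformin replicate 1 stood outside the other metformin libraries in 22 sets, no other library did in any, and chance gives about 6. Its share of exon reads crossing a junction was low in 8 genes: ASNS (33.4%), PHGDH (34.7%), PSAT1 (6.20%), PSPH (15.5%), SHMT2 (23.6%), MTHFD2 (5.75%), SLC3A2 (26.1%) and SLC1A5 (8.65%). In TPM it was low for PSAT1 (66.6), SHMT2 (162), MTHFD2 (73.0) and SLC3A2 (278), and SHMT2 had 37 intron reads there. Among the genes named beside the 10, its TPM was low for ARG2 (23.4), SLC38A9 (0.947), ATF4 (745), MYC (26.8) and SHMT1 (20.3). Its PSAT1/PHGDH ratio was low (0.570), and its SHMT2/SHMT1 (8.01), ASNS/GLUL (1.53) and SLC1A5/SLC38A2 (1.12) ratios were high.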

How the results depend on the processing

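Of 1263 single values recomputed under the alternatives, 1173 stayed on the same side of zero and of the threshold, 29 passed it newly, 31 no longer passed it and 30 changed sign. The cause was not tested where none is named. In TPM, median-ratio scaling gave 6 of the 10 genes higher and 0 lower (2571 and 2927 of all genes), and turned SHMT2 to 0.38, MTHFD2 to 0.41, SLC7A11 to 0.29 and MTHFD1 to 0.0074. Quantile normalization gave 1 of the 10 lower (2344 and 3073 of all genes) and turned MTHFD2 to 0.029, SLC7A5 to -0.010 and SLC7A11 to 0.49. Array weights gave 5 of the 10 higher (2755 of all genes) and turned SHMT2 to 0.044, MTHFD2 to 0.33 and SLC7A11 to 0.35. RPKM turned MTHFD2 to 0.015 and called SLC7A1 lower (-0.56, adjusted p = 0.0307 by limma), which made 3 of the 10 lower, and no filter on low values called 1642 genes higher. In exon reads, library totals alone gave 3 of the 10 higher and 2 lower (1210 and 4957 of all genes). A mean of at least 50 intron reads, which tests fewer genes, gave 1996 and 1896 genes in intron reads and 820 higher in the ratio. Unique intron reads turned MTHFD2 to -0.24, and a pseudocount of 5 turned the ratio of PSPH to -0.029. That pseudocount and the minimum of 50 intron reads each called the ratio of SLC7A5 lower as well (-0.71 and -0.72, adjusted p = 0.0389 and 0.0437), which made 5 of the 10, and the edgeR model called 2156 genes higher in the ratio.

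Leaving out each library in turn, the 10 genes called higher numbered 3 to 5 in TPM, 6 in exon reads, 6 to 8 in intron reads and 2 to 6 in junction reads, and those lower 2, 0 to 2, 0 to 1 and 0 to 1, with 2 to 7 lower in the exon to intron ratio. Of all genes, those higher ranged from 811 to 1933 in TPM, 2292 to 3667 in exon reads and 3129 to 4054 in intron reads. They ranged from 1001 to 2572 in junction reads and 1104 to 2134 in the ratio. Genes lower ranged from 4159 to 5574 in TPM, 2662 to 3877 in exon reads and 3151 to 4228 in intron reads. In junction reads they ranged from 1360 to 2616 and in the ratio from 1431 to 3409. Signs turned in TPM for SHMT2 (-0.077 to 0.029), MTHFD2 (-0.10 to 0.25) and SLC7A11 (-0.13 to 0.11), in exon reads for PSAT1 (-0.070 to 0.082), in junction reads for PSAT1 (-0.18 to 0.090) and SLC7A1 (-0.30 to 0.075), in the exon to intron ratio for PSPH (-0.12 to 0.10) and MTHFD2 (-0.045 to 0.37), and in SLC7A5/SLC3A2 (-0.14 to 0.075). Of the 8 TPM ratios, 6 to 7 passed the threshold.

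Same-numbered libraries correlated from -0.65 to 0.72, over 0.1 in 3 of 6 pairs, and 1 of 6 metformin libraries correlated best with its own number. Each control library correlated best with metformin replicate 1 or 3, so these correlations could not decide whether the numbers pair the libraries. A replicate block left 3 higher and 2 lower of the 10 in TPM (915 and 4769 of all 11313 genes). In exon reads it left 6 and 0 (2467 and 2919 of the same genes). It left 3 lower in the exon to intron ratio (1597 of 9920 genes), since SHMT2 no longer passed (adjusted p = 0.0580). It changed no other call of the 10 genes. At this depth the intron reads of MTHFD2 and of single libraries of SLC1A5, as low as 7, limit what can be said of these genes.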
